A study of Mus musculus with 6 samples.

Results

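Transcripts of the translation initiation and elongation factors were examined in 6 mouse cells. The members were the rows of the gene table whose symbol begins with Eif1 to Eif6, Eef1 or Eef2. Of 71 such rows, Eif2ak2, Eif2s3y and 6 pseudogene rows (symbols ending in -ps, with or without a number after it) were left out, which left 63 members of 44804 rows with a usable name. The rule reads the symbol and no measured value. One of them, Eif2c5, carries an old name of the argonaute family and is annotated as a long noncoding RNA, while the other 62 are annotated as protein-coding. The cells were 3 circulating tumor cells (CTCs), which are tumor cells taken from blood, and 3 tumor cells, with 1 of each from mice 1157, 1168 and PDGF1. The titles mark the tumor cells with GBM. All 6 cells went through the same linear RNA amplification. The labels name the mouse and the kind of cell for each sample, and strain, genotype, age, treatment and tumor model were not analysed here. Only the CTCs carry the words single-cell in the source label, whereas the series text counts single cells for all 6.

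Translation begins when the small ribosomal subunit, loaded with initiator tRNA by eIF2 and held open by eIF1, eIF1A and eIF3, is brought to the capped end of an mRNA by eIF4F. That assembly joins the cap-binding protein eIF4E, the scaffold eIF4G and the helicase eIF4A. eIF5 and eIF5B then complete start-codon selection and joining of the large subunit, after which eEF1 delivers aminoacyl-tRNAs and eEF2 moves the ribosome along. Cells control the first steps by phosphorylating eIF2, which blocks its recycling by eIF2B, and by the 4E-BP proteins, which hold eIF4E until mTORC1, a nutrient-sensing kinase complex, releases it. In tumors, including gliomas, eIF4E and its inhibitors are known as points where growth signalling meets protein synthesis.

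The values are FPKM as deposited, sequenced fragments divided by the length of the transcript and by the depth of the library. The low values of genes with 1 annotated transcript fell on steps that match whole fragments, and these steps gave the depth. A gene at 1 FPKM had an estimated 11.7 fragments per kilobase in the tumor cell of mouse 1157, the shallowest, and 27.3 to 55.3 in the other cells. Amplified fragments are not independent molecules, so this measures depth and not the number of transcripts in a cell. Markers of glioma and of oligodendrocyte progenitors were at 1 FPKM or more for 10 of 10 genes in the CTC and 9 of 10 in the tumor cell of mouse 1168. Mouse 1157 had 4 of 10 at that level in each cell. In its tumor cell the highest was Olig2 at 1.58, under the background level of 1.85 that is described below. These genes thus gave the label of that cell little support. In mouse PDGF1 the CTC had 0 and the tumor cell 1, so these genes gave its labels little or no support. Of 8 leukocyte and myeloid markers, 7 were at that level in the tumor cell of mouse 1168, with a summed 2670 FPKM against 241 in its CTC (4 of 8), and in the other 4 cells the sum ran from 3.52 to 25.8. Each of 5 erythroid markers was under 1 FPKM in every cell. Their part in the differences reported here was not tested.

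Many mRNAs of the translation machinery begin at the cap with a cytosine followed by an unbroken run of pyrimidines, the terminal oligopyrimidine start through which mTORC1 controls their translation. The annotated transcript starts of the members were read to show which carry such a run (GENCODE mouse release M21 on GRCm38, transcribed strand, with a C and at least 4 further C or T bases). Among the 62 coding members, 9 had a transcript with this start, or 14.5%, against 5.11% of 20643 coding genes and 28.9% of 83 cytosolic ribosomal protein symbols. The mirror run, a G and at least 4 further G or A bases, also occurred in 9 members and in 2653 of the coding genes. To show what a pyrimidine start looks like, 4 with runs of 7 bases or more are printed with the first 30 bases of the transcript, all in its first exon, and the run is in capitals.
Eif2s3x: CTTTTCTCTCCgagcaagatggctgggggt
Eef1d: CTCTCCTTTgcagtcctgagctcgcagttc
Eif3f: CTCTTTCTCggcaagatggcttctccggcc
Eif3m: CTTTTCCggtcggcgtgtttctggatcgga
These windows lie at chrX:94212622-94212651 on the minus strand for Eif2s3x, chr15:75909277-75909306 (minus) for Eef1d, chr7:108934417-108934446 (plus) for Eif3f and chr2:105017014-105017043 (minus) for Eif3m. Shorter runs of 5 or 6 bases began transcripts of Eif4a2, Eif4g2, Eif2s1 and Eif2b4. Some of these are short annotated forms, such as the Eif2b4 transcript of 281 bases, and a match says nothing of whether that start was used in these cells. Likewise, a gene without a match may still begin with such a run at a start that the annotation does not give. In mouse 1168 the members with such an annotated start had a median of 107 FPKM for the CTC and 74.4 for the tumor cell. The other 53 coding members, which may include genes with such a start, had 35.2 and 32.3. The FPKM of a gene covers all of its transcripts, so these medians do not measure the printed starts themselves.

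Nearly all members were detected in both cells of mouse 1168, and smaller parts of the set in the other 4 cells. Whether those cells lacked the transcripts or their libraries did not capture them was not tested. At 1 FPKM or more there were 56 of 63 members for the CTC and 59 for the tumor cell of mouse 1168. Pairs of values for a mouse give the CTC first and the tumor cell second. The same level was reached by 23 and 21 members for mouse 1157, and by 4 and 13 for mouse PDGF1. Over all named rows the shares at that level were 21.7% and 25.1% for mouse 1168, 6.41% and 9.10% for mouse 1157, and 3.32% and 6.75% for mouse PDGF1. Members took 1.31% of all FPKM in the CTC of mouse 1168 and 1.36% in its tumor cell, against 0.713% and 0.0991% for mouse 1157 and 0.0450% and 0.125% for mouse PDGF1. Of the 63 members, 59 had their highest value in a cell of mouse 1168, and for 53 both of its cells lay above the other 4. The members with their highest value in another mouse were Eif4b, Eef2k and Eif4e1b, and Eif2c5 was listed at 0 in all 6 cells.

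**Figure D1:**
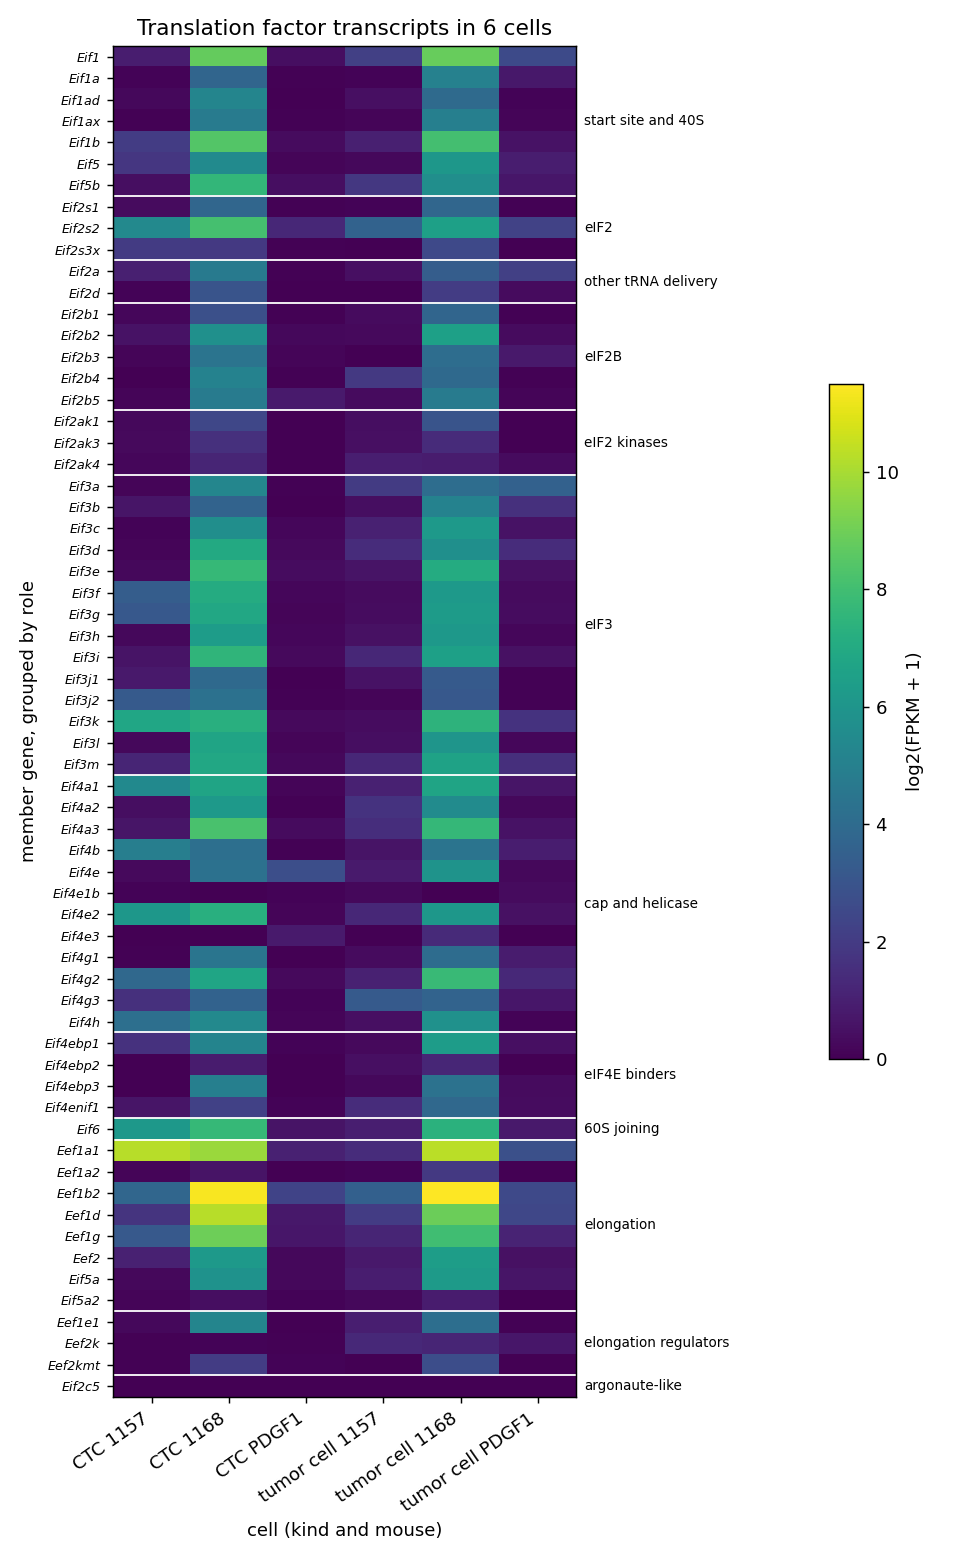
Level of each of the 63 members (rows, grouped by role) in each of the 6 cells (columns), as log2(FPKM + 1), with brighter colours for higher values. Both columns of mouse 1168 are bright in nearly every row (56 and 59 members at 1 FPKM or more), the CTC of mouse 1157 is bright in scattered rows (23 members), and the CTC of mouse PDGF1 in the fewest (4 members).

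How much of this lies above background was read from 1585 rows of olfactory and vomeronasal receptor genes, which sensory neurons of the nose use. Above the 99th percentile of those rows in the same cell lay 59 members for the CTC and 57 for the tumor cell of mouse 1168, 24 and 9 for mouse 1157, and 2 and 1 for mouse PDGF1. The percentile itself was 0.135 and 1.60 FPKM in mouse 1168, 0.786 and 1.85 for mouse 1157, and 3.50 and 7.03 for mouse PDGF1. The members above it in mouse PDGF1 were Eif4e and Eef1b2 in the CTC and Eif3a in the tumor cell. Most member values of mouse PDGF1 therefore lay within the range of the receptor rows, under that percentile. Of all 44804 named rows, those beyond the percentile numbered 12961 and 9790 (mouse 1168), 3584 and 2162 (1157), 638 and 528 (PDGF1). The 2 and 1 members counted for PDGF1 were 3.17% and 1.59% of the 63. Whether the members as a set lay above the receptor rows was not tested.

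By their mean over the 6 cells, which mouse 1168 sets, the 3 highest members were the elongation factor genes Eef1b2, Eef1a1 and Eef1d. Cell by cell the highest was Eef1b2 in both cells of mouse 1168 and Eef1a1 in the CTC of mouse 1157, but Eif2s2 in the tumor cell of mouse 1157, Eif4e in the CTC of mouse PDGF1 and Eif3a in its tumor cell. Eef1b2 encodes the beta subunit of eEF1, which reloads eEF1A with GTP, and lies on chromosome 1 from 63176825 to 63180486. It was at 2686 FPKM for the CTC and 2902 for the tumor cell of mouse 1168, ranks 51 and 29 of all rows, at 13.1 and 10.5 for mouse 1157, and at 3.95 and 4.83 for mouse PDGF1. In FPKM as deposited, the 2 cells of a mouse thus lay close together for this gene in all 3 mice, while mice differed widely. In mouse 1157 this closeness depends on the scaling, since the FPKM of all named rows summed to 236427 (CTC) against 80273 (tumor cell). As a share of that sum, Eef1b2 was lower in this CTC. Eef1a1, the GTPase that carries aminoacyl-tRNA to the ribosome (chromosome 9 from 78478449 to 78489151), was at 884 and 1289 for mouse 1168, 1217 and 1.79 for mouse 1157, and 1.05 and 6.01 for mouse PDGF1. In the CTC of mouse 1157 it alone made up 72.2% of the summed FPKM of the members, rank 33 of all rows. Eef1b2, Eef1a1 and the eIF2 subunit gene Eif2s2 were the members at 1 FPKM or more in all 6 cells. Reads of Eef1a1 and Eef1b2 may also match their pseudogenes, and each shares exon sequence on the same strand with a small RNA gene (Gm26377 and Gm27390), so their levels are uncertain to that extent.

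The other eEF1 subunits were also highest in mouse 1168. Eef1d, the delta subunit, was at 1219 FPKM for the CTC and 479 for the tumor cell of mouse 1168, 2.36 and 3.08 for mouse 1157, and 0.679 and 4.41 for mouse PDGF1. Eef1g, the gamma subunit that anchors the exchange factor, was at 492 and 249, 8.18 and 1.30, and 0.601 and 1.24 in the same order. The tissue-restricted form of eEF1A, Eef1a2, which is used by neurons and muscle, was at most 2.74 FPKM and made up at most 4.86% of the eEF1A total in any cell. Eef2, the translocase, was at 72.8 and 84.9 FPKM in mouse 1168 and at most 1.09 elsewhere, and Eef2kmt, a lysine methyltransferase of eEF2, at 3.12 and 5.66 and at most 0.0658 elsewhere. Eif5a, which helps ribosomes through difficult peptide bonds, was at 57.5 and 75.8 for mouse 1168 and at most 0.908 elsewhere, and its paralog Eif5a2 stayed under 1 FPKM in all 6 cells. Levels within the eEF1 complex were therefore far from equal, since in mouse 1168 Eef1b2 stood above Eef1a1 in both cells.

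The eIF2 complex, which brings the initiator tRNA, was likewise uneven, with its beta subunit gene highest in 6 of 6 cells. In both cells of mouse PDGF1 that gene lay under the receptor percentile, so its rank there carries little weight. Eif2s2 (chromosome 2 from 154871410 to 154892935) was at 278 FPKM for the CTC and 93.0 for the tumor cell of mouse 1168, 41.3 and 11.2 for mouse 1157, and 1.41 and 3.84 for mouse PDGF1. Eif2s1, the alpha subunit that the stress kinases phosphorylate, was at 13.0 and 12.9 for mouse 1168 and at most 0.272 in the other cells. Eif2s3x, the X-linked gene of the GTP-binding gamma subunit, was at 2.80 and 4.89 for mouse 1168 and 3.01 in the CTC of mouse 1157, was listed at 0 in the tumor cells of mice 1157 and PDGF1, and was at 0.0470 in the CTC of mouse PDGF1. Reads of Eif2s3x may also match its Y-linked copy. Eif2a and Eif2d, which can deliver initiator tRNA without eIF2, were at 25.3 and 6.83 in the CTC of mouse 1168 and at 9.52 and 3.07 in its tumor cell.

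All 5 subunit genes of eIF2B, the exchange factor that recycles eIF2, were at 1 FPKM or more in both cells of mouse 1168, with medians of 26.9 for the CTC and 16.1 for the tumor cell. Elsewhere 1 of them reached that level, Eif2b4 at 2.71 in the tumor cell of mouse 1157. The catalytic subunit gene Eif2b5 was at 26.9 and 26.6 for mouse 1168, 0.113 and 0.258 for mouse 1157, and 0.759 and 0.112 for mouse PDGF1. Kinases of eIF2 were low in every cell. Eif2ak1, the heme-regulated kinase, was at 4.54 and 7.04 for mouse 1168 and at most 0.331 elsewhere. Eif2ak3 (PERK, of the endoplasmic reticulum stress response) was at 2.06 and 1.67 for mouse 1168, and Eif2ak4 (GCN2, which senses uncharged tRNA) at 1.30 and 0.819. Outside mouse 1168 none of these 3 kinases reached 1 FPKM, and the highest was Eif2ak4 at 0.962 in the tumor cell of mouse 1157.

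Among factors of the scanning ribosome, the eIF1 genes were the highest in both cells of mouse 1168, and the order differed elsewhere. Eif1, which guards start-codon choice, was at 437 FPKM for the CTC and 458 for the tumor cell of mouse 1168, 0.872 and 3.47 for mouse 1157, and 0.329 and 5.05 for mouse PDGF1. Its paralog Eif1b was at 338 and 268, 3.14 and 0.992, and 0.256 and 0.470. Eif1 made up 56.4% and 63.1% of the pair in mouse 1168 but 21.7% and 77.8% in mouse 1157. The eIF1A genes Eif1a and Eif1ax were at 12.5 and 26.2 in the CTC of mouse 1168, at 32.3 and 29.9 in its tumor cell, and under 1 FPKM in the other 4 cells, as was Eif1ad, an eIF1A-domain gene, at 37.0 and 14.6 for mouse 1168. Eif5b, the GTPase that joins the large subunit, was at 195 and 49.7 for mouse 1168, 0.362 and 2.65 for mouse 1157, and 0.344 and 0.645 for mouse PDGF1. Eif5, the GTPase activator of eIF2, was at 45.0 and 67.7, 2.57 and 0.204, and 0.123 and 0.879. In the CTC of mouse PDGF1 Eif5b was thus slightly above Eif1, at levels under the receptor percentile. Eif6, which keeps the large subunit apart until it is mature, was at 209 and 161 for mouse 1168, 68.9 and 0.944 for mouse 1157, and 0.537 and 0.700 for mouse PDGF1.

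All 14 genes of eIF3, the large scaffold on the small subunit, were at 1 FPKM or more in both cells of mouse 1168. Their median was 111 FPKM for the CTC and 71.4 for the tumor cell, with a range from Eif3b at 11.5 to Eif3e at 206 and from Eif3j2 at 8.06 to Eif3k at 170. Subunits of 1 complex thus spanned more than an order of magnitude in level. In the CTC of mouse 1157, 5 of 14 reached 1 FPKM, led by Eif3k at 112, with Eif3f at 9.56, Eif3j2 at 8.50, Eif3g at 7.95 and Eif3m at 1.31. Its tumor cell also had 5 of 14, with a maximum of 3.05 for Eif3a. The CTC of mouse PDGF1 had 0 of 14, with a highest value of 0.309, and the tumor cell had 5, led by Eif3a at 10.8. Eif3k was at 150.2 and 170 for mouse 1168, 112 and 0.314 for mouse 1157, and 0.239 and 2.26 for mouse PDGF1. Eif3e was at 206 and 135, 0.191 and 0.518, and 0.309 and 0.4497 in the same order. Eif3a encodes the largest subunit, which the others assemble on. Eif3j1 and Eif3j2 are near-identical copies of the loosely bound subunit, so their reads cannot be fully separated. They were at 14.2 and 18.7 in the CTC of mouse 1168, 8.67 and 8.06 in its tumor cell, and 0.742 and 8.50 in the CTC of mouse 1157.

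Among the 4 eIF4E genes, Eif4e2 was the highest in 5 of 6 cells, with the CTC of mouse PDGF1 as the exception. In the tumor cells of mice 1157 and PDGF1 it lay under the receptor percentile, so its rank there carries little weight. Eif4e, the main cap-binding protein, was at 18.6 FPKM for the CTC and 59.0 for the tumor cell of mouse 1168, 0.210 and 0.762 for mouse 1157, and 5.76 and 0.187 for mouse PDGF1. Eif4e2, a cap-binding homolog tied to repression and to translation under low oxygen, was at 153 and 67.5, 67.9 and 1.45, and 0.115 and 0.416. Eif4e made up 10.9% of the summed FPKM of the 4 eIF4E genes in the CTC of mouse 1168 and 46.0% in its tumor cell, 0.307% in the CTC of mouse 1157, and 85.4% in the CTC of mouse PDGF1. Eif4e3 was at most 1.61, in the tumor cell of mouse 1168, and at 0.789 in the CTC of mouse PDGF1, and Eif4e1b, a form of oocytes, was at most 0.253. Eif4e shares exon sequence on the same strand with Mir1956.

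The helicase and scaffold genes also came in pairs or sets. Eif4a1, the main helicase, had 105 and 106 FPKM for mouse 1168, 43.5 and 1.10 for mouse 1157, and 0.109 and 0.567 for mouse PDGF1. Eif4a2, its close paralog, was at 73.0 and 45.2, 0.357 and 2.22, and 0.0619 and 0.200. The Eif4a1 share of the pair was 59.1% and 70.1% for mouse 1168, and in mouse 1157 it was 99.2% and 33.2%. Eif4a3, whose helicase works in the exon junction complex rather than at the cap, was at 297 and 204 for mouse 1168, 0.566 and 1.85 for mouse 1157, and 0.253 and 0.453 for mouse PDGF1. The helicase cofactors Eif4b and Eif4h were at 29.1 and 17.5 in the CTC of mouse 1157, against 17.3 and 42.1 in the CTC and 20.2 and 55.4 in the tumor cell of mouse 1168. Eif4b was not at 1 FPKM or more in the other 3 cells.

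Of the scaffolds, Eif4g2, which lacks the site that binds eIF4E and serves other entry routes, was at 107 and 222 FPKM in mouse 1168, 14.0 and 1.10 for mouse 1157, and 0.241 and 1.54 for mouse PDGF1. Eif4g1, the main scaffold, was at 20.9 and 16.0 for mouse 1168 and at most 0.811 elsewhere. Eif4g3 was at 11.2 and 11.6 for mouse 1168 and 2.002 and 8.69 for mouse 1157, where it made up 12.5% and 86.6% of the eIF4G total. Eif4g2 was the highest of the 3 in 5 of 6 cells, but under the receptor percentile in both cells of mouse PDGF1. Each of these within-set shares has 1 cell behind it and no replicate.

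Genes whose products bind eIF4E had higher values in both cells of mouse 1168 than in the other 4 cells. Eif4ebp1, which encodes the inhibitor 4E-BP1, was at 35.2 FPKM for the CTC and 80.2 for the tumor cell of mouse 1168, 2.13 and 0.227 for mouse 1157, and 0.0881 and 0.370 for mouse PDGF1. Eif4ebp3 was at 30.3 and 19.4 for mouse 1168, and at 0 or at most 0.265 elsewhere. Eif4ebp2, the form most used by brain, was at most 1.35 in any cell. Eif4ebp3 therefore made up 45.7% of the 3 inhibitor genes in the CTC of mouse 1168 and 19.2% in its tumor cell, and Eif4ebp1 53.1% and 79.5%. Because Eif4ebp3 shares exon sequence on the same strand with AC115631.1, these shares are uncertain to that extent. Eif4enif1, a transporter that takes eIF4E to the nucleus and to RNA granules, was at 3.64 and 13.8 for mouse 1168, 0.568 and 1.77 for mouse 1157, and 0.0721 and 0.301 for mouse PDGF1.

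The design first asks whether CTCs and tumor cells differ over the 3 mice. No tested member passed the test. By limma on log2(FPKM + 1), 0 of 35 tested members passed an adjusted p of 0.05 and 0 had an unadjusted p under 0.05, beside 0 of 4165 genes tested (0%) with 7 at an unadjusted p under 0.05. Tested genes had at least 1 FPKM in at least 3 of 6 cells, a level the other 28 members did not reach. Of the tested members 19 had a positive and 16 a negative difference (CTC minus tumor cell), and their median was 0.08 against -0.06 over all genes tested. Within mice the median over the same members was 0.56 for mouse 1157, 0.24 for mouse 1168 and -0.34 for mouse PDGF1, a mean of 0.15 ± 0.46 (SD, n = 3 mice). No tested member had all 3 CTCs above or all 3 below the tumor cells, beside 0.264% and 1.3% of genes tested. The median turned to -0.59 when FPKM was rescaled to the same sum in each cell, where the median of all genes tested was -0.68. It ran from -1.505 without the CTC of mouse 1168 to 2.02 without the tumor cell of mouse 1168, each over the 15 members then tested. The median of all genes then tested was -0.98 and 0.96, so single cells set the sign of both medians.

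The 6 members of smallest p show how far the cells of a group lay apart. Eif3j2 had a log2 difference of 1.40 (SE 1.79, adjusted p = 0.99994, limma), from 8.50, 18.7 and 0.0318 FPKM for the CTCs of mice 1157, 1168 and PDGF1 and 0.118, 8.06 and 0.0443 for the matching tumor cells. Eif4enif1 had -0.92 (SE 1.37), the only one of the 6 with the CTC lower in all 3 mice, and the values given above overlapped between the groups. Eif3a had -1.40 (SE 2.47), from 0.102, 38.3 and 0.0326 in CTCs and 3.05, 16.3 and 10.8 in tumor cells, where the CTC of mouse 1168 was the highest of all 6. Eif4e2 had 1.88 (SE 3.48), Eif3b, an RNA-binding eIF3 subunit, -0.92 (SE 1.86) and Eif2s3x 0.48 (SE 0.97), each with the same adjusted p. Eif3b was at 0.557, 11.5 and 0.0253 in CTCs and 0.325, 32.8 and 2.03 in tumor cells. The adjusted p of Eif3j2 was 0.952 with the mouse as a replicate block.

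Within single mice, differences of at least 1 on the log2(FPKM + 1) scale were counted among members at 1 FPKM or more in 1 of the 2 cells. A mouse contributed a single cell per kind, so these counts describe pairs of libraries and have no test. In mouse 1157, 17 of 34 measured members were higher in the CTC and 8 lower, beside 29% and 37.1% of all rows measured the same way. The member median was 0.81 and that of all rows -0.62. After both cells were rescaled to the same FPKM sum, the median of these 34 members was 0.01, with 15 higher and 15 lower. That of all the same rows was -2.43, with 26% higher and 61.8% lower. The direction of the members as a set therefore depended on the scaling, while their median lay above that of these rows both times. Over all 58 members that reached 1 after rescaling, the median was -1.30 against -1.42 for all such rows, so the gap between members and all rows also depended on which rows were counted. The CTC of mouse 1157 held 41.3 FPKM of Eif2s2 against 11.2, and the largest differences were 8.77 for Eef1a1, 6.42 for Eif3k (112 against 0.314) and 5.17 for Eif6.

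The members higher in the CTC of mouse 1157 included 5 of the 12 in the cap and helicase group. Of 8 measured there, Eif4e2, Eif4a1, Eif4b, Eif4h and Eif4g2 were higher by at least 1, and Eif4a2 and Eif4g3 lower, with a group median of 3.28 (2.84 after rescaling, with 5 higher and 3 lower). Of 9 eIF3 genes measured, Eif3k, Eif3j2, Eif3f and Eif3g were higher, and Eif3a and Eif3d, at 0.102 and 0.128 FPKM against 3.05 and 1.77, lower, and after rescaling 4 were higher and 5 lower. The others lower were Eif2b4, Eif5b, Eif1 and Eef2k. None of the 8 lower members reached 10 FPKM in the tumor cell. In the CTC, 10 members were at 10 FPKM or more, against 2 in the tumor cell.

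**Figure D2:**
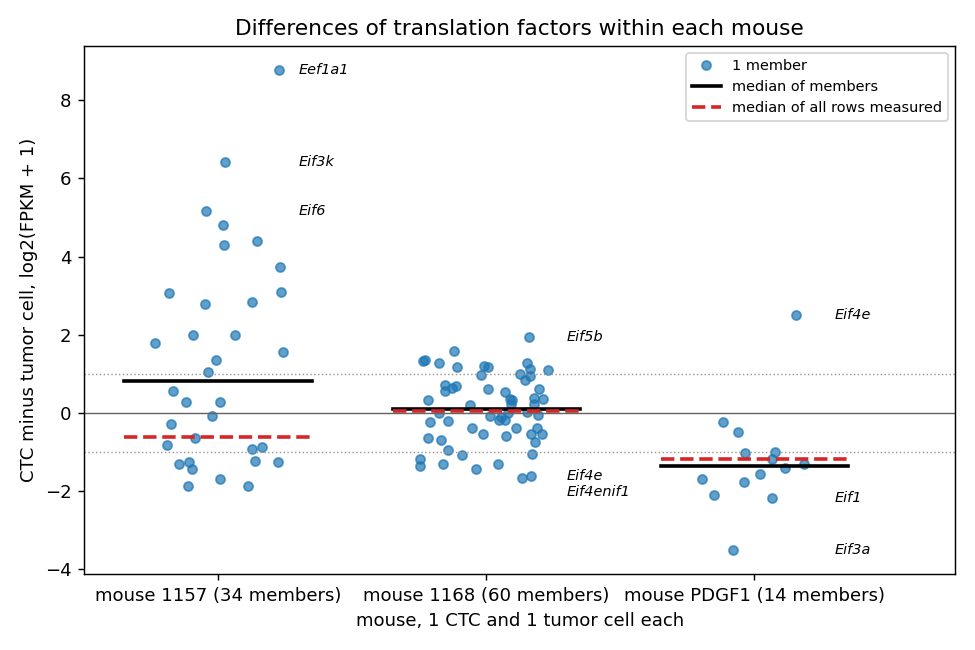
Difference of each measured member between the CTC and the tumor cell of the same mouse, on the log2(FPKM + 1) scale (vertical axis), for mice 1157, 1168 and PDGF1, with the 3 members of largest difference named. Points stand for members, solid lines for the member median (0.81, 0.11 and -1.35), dashed lines for the median of all rows measured (-0.62, 0.04 and -1.18) and dotted lines for a difference of 1, and the points of mouse 1168 lie within 2 of zero.

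In mouse 1168 the 2 cells had nearly the same profile of these genes. Of 60 measured members, 12 were higher in the CTC, 9 lower and 39 apart by less than 1, beside 22.7% and 24.9% of all rows higher and lower. The member median was 0.11 (0.04 over all rows) and turned to -0.12 for the same members after rescaling. There 6 were higher and 10 lower, beside 19.9% and 30.5% of the same rows. For all 61 members that reached 1 after rescaling the median was -0.22, against -0.27 over all such rows. Across the 63 members, which are not independent replicates, the log2 values of both cells correlated at 0.95 (Pearson) and 0.93 (Spearman). Every other pair of cells had Pearson values of 0.27 to 0.59 and Spearman values of 0.38 to 0.75. The highest of these Spearman values was that of the CTC of mouse PDGF1 with the tumor cell of mouse 1168. The largest difference was 1.95 for Eif5b, followed by -1.67 for Eif4enif1 and -1.61 for Eif4e. No member of this mouse differed by 2 or more.

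The differences within mouse 1168 are given by role. Of 14 eIF3 genes, Eif3d (126 against 51.7 FPKM), Eif3a, Eif3j2 and Eif3i (186 against 92.3) were higher in the CTC and Eif3b was lower, with a group median of 0.63, and after rescaling the median was 0.41 with 1 gene of the group higher and 1 lower. Also higher were Eif2s2, Eef1d, Eif5b, Eif2a, Eif1ad, Eif2b4 and Eef1e1, a scaffold of the aminoacyl-tRNA synthetase complex at 36.4 against 16.6. The eIF4E genes went both ways, with Eif4e2 higher by 1.16 and Eif4e lower (18.6 against 59.0), and their summed level was 171 FPKM in the CTC against 128. Of the 4 eIF4E binders, Eif4ebp1 and Eif4enif1 were lower by at least 1, Eif4ebp3 was at 30.3 against 19.4, and the median was -0.77 (-0.999 after rescaling). The remaining lower members were Eif4g2, Eif1a and 3 low genes, Eef1a2, Eif4e3 and Eef2k. At 1.61 FPKM or less, Eif4e3 and Eef2k lay near the receptor percentile of the tumor cell, 1.60.

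**Figure D3:**
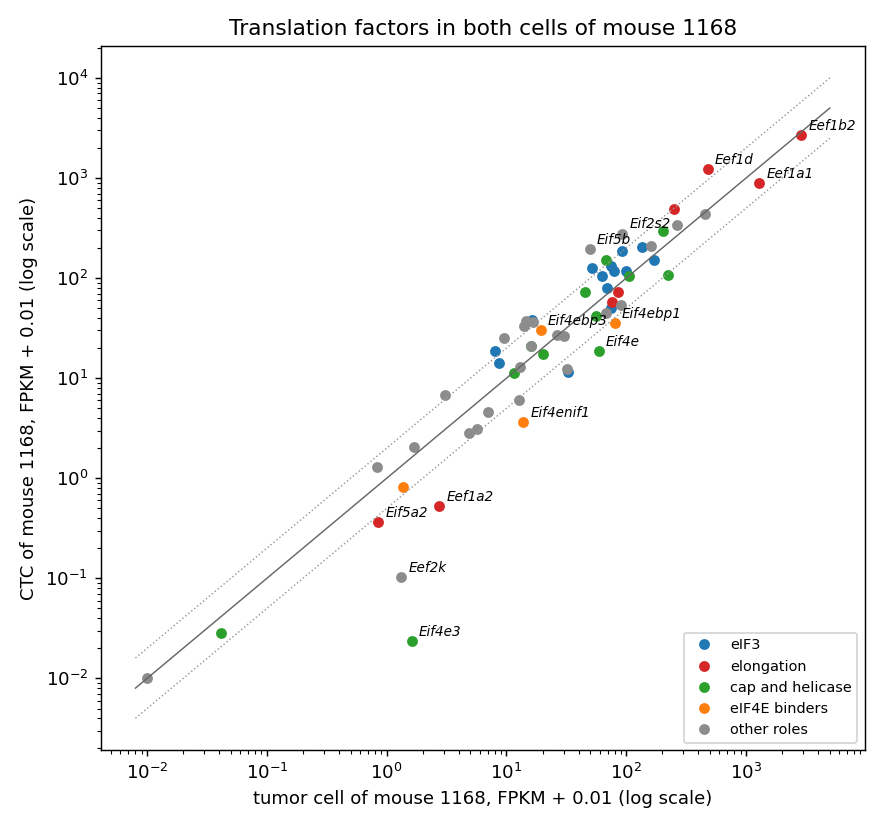
FPKM of each member in the tumor cell (horizontal, log scale) against the CTC (vertical, log scale) of mouse 1168, with 0.01 added so that zeros can be drawn, coloured by role. The solid line marks equal levels and the dotted lines a ratio of 2, and Eef1b2, at 2902 and 2686, sits at the upper end while Eif4e, Eif4ebp1 and Eif4enif1 lie below the line and Eif4e2 above it.

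In mouse PDGF1, 14 members were measured, and 11 were lower and 1 higher in the CTC, beside 59.9% and 23.7% of all rows. Most entered through the tumor cell alone, where 13 members reached 1 FPKM, while 4 did so for the CTC. Only Eef1b2, Eef1a1 and Eif2s2 reached it in both cells, with differences of -0.24, -1.77 and -1.01. A member that reached it in only 1 cell had its sign set by the filter. These counts therefore cannot show the direction of the set. The member median was -1.35 against -1.18 over all rows, and with the same sum in both cells it was -2.56 against -3.41. For all 56 members that reached 1 after rescaling it was -1.10, as it was over all such rows. Eif4e was the member higher in the CTC, at 5.76 against 0.187, a difference of 2.51. The lower ones included Eif3a by -3.51, Eif1 by -2.19, Eif2a, Eef1a1, Eef1d and 4 further eIF3 genes. Of these Eif3a alone lay above the receptor percentile of the tumor cell.

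Few members took the same direction in all 3 mice. Eif2s1 was higher in each CTC, by 0.24, 0.01 and 0.01. Lower in each CTC were 11 members, Eif4enif1, Eif4g3, Eif2b1, Eif2ak1, Eif3c, Eef2k, Eif1, Eif1a, Eif1ax, Eif4e1b and Eif5a, and 0 members differed by at least 1 in all 3 mice in either direction. Among the 60 members at 1 FPKM or more in at least 1 cell the counts were 1 and 10, beside 5.32% and 15.9% of all such rows, so the lower count was near the background share and the higher count below it. Mouse by mouse, Eif1 differed by -1.26, -0.07 and -2.19, and Eif3c, a core eIF3 subunit, by -0.91, -0.54 and -0.36, so the sizes varied even where the sign did not.

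Eef2k encodes the kinase that phosphorylates eEF2 and slows elongation when energy or nutrients run short, and lies on chromosome 7 from 120842831 to 120907450. It was at 0.0616, 0.0921 and 0.05003 FPKM for the CTCs of mice 1157, 1168 and PDGF1, against 1.496, 1.32 and 0.629 for the matching tumor cells. All 3 CTCs thus lay below all 3 tumor cells, which was remarked after its values were seen and held for 1.79% of 10072 rows at 1 FPKM or more in at least 2 cells. Only 2 cells reached 1 FPKM, both of them tumor cells, so the gene was not among those tested. A level required in 2 cells is thus met only through the group where Eef2k is high. Neither that share of rows nor the fits at that level can therefore support the direction of Eef2k. With the level required in 2 cells its log2 difference was -0.98 (SE 0.69, unadjusted p = 0.151, adjusted p = 0.99996, limma). That SE follows genes of like level rather than the spread of Eef2k itself, which was 0.068 ± 0.022 FPKM in the CTCs and 1.15 ± 0.457 in the tumor cells (SD, n = 3 each). Within mice the differences were -1.23, -1.08 and -0.63 for 1157, 1168 and PDGF1. With the mouse as a replicate block, an alternative added after its values were seen, the SE was 0.22 (unadjusted p = 0.00829, adjusted p = 0.903, limma), so it did not pass over all genes in that fit either. After rescaling to the same FPKM sum the difference was -2.71 (SE 1.41, unadjusted p = 0.0556, adjusted p = 0.9996, limma). Each of the tumor cell values lay under the receptor percentile of its own cell.

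Transcript length and level went together among members of mouse 1168. Over 62 coding members, Spearman's rho between the length of the longest annotated coding transcript and FPKM was -0.52 for the CTC and -0.54 for the tumor cell, as a description across genes. Over all coding genes at 1 FPKM or more it was -0.35 and -0.33. The 31 members shorter than the middle length had a median of 105 FPKM for the CTC and 78.8 for the tumor cell, and the 31 longer ones 18.6 and 16.3. Short members such as Eif1, Eif3k and Eef1b2 were among the highest, while Eif5b, with 7797 bases, was long and still at 195 in the CTC. The points of a cell share 1 library, and FPKM itself holds the length as a divisor.

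**Figure D4:**
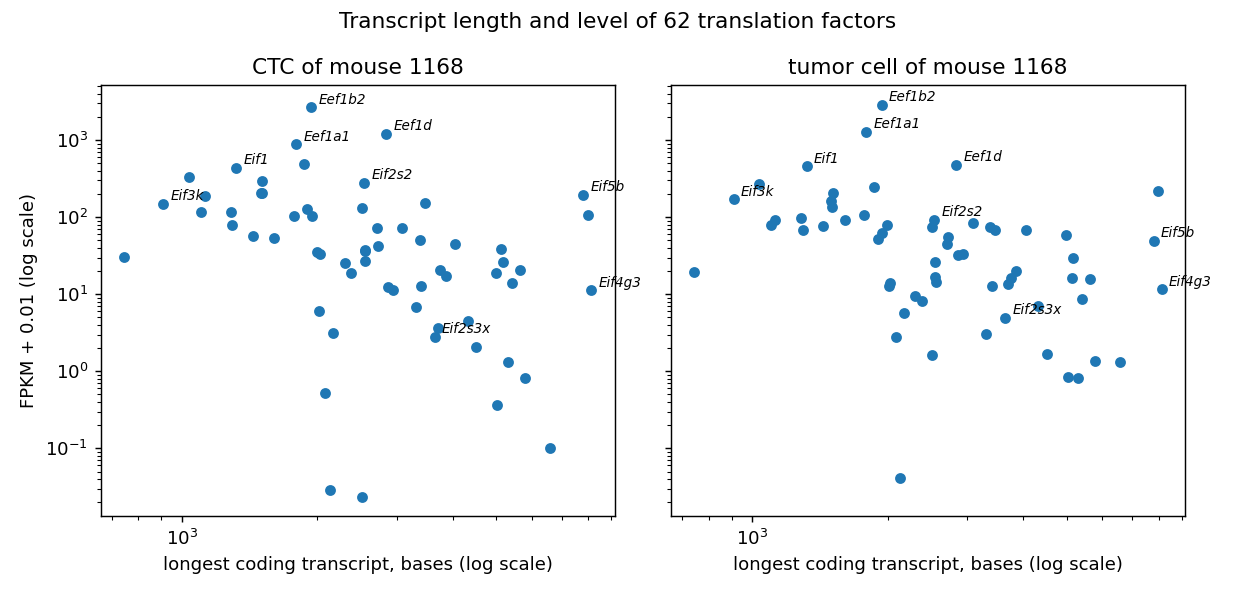
Length of the longest annotated coding transcript in bases (horizontal, log scale) against FPKM with 0.01 added (vertical, log scale) for the 62 coding members in the CTC (left) and the tumor cell (right) of mouse 1168. Levels are lower toward the right in both panels (rho -0.52 and -0.54), with Eif5b above its neighbours in the CTC.

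Other genes of translation were counted in the same way. In none of 7 lists did a gene pass by limma. Of mTORC1 and cap-signalling kinases 8 of 15 genes were tested, 5 positive and 3 negative (median 0.04), among them Mknk2, a kinase of eIF4E, at -0.81 (SE 1.12). Of partners at the mRNA ends 7 of 12 were tested with a median of -0.39, and the poly(A)-binding protein gene Pabpc4 had -1.32 (SE 1.15). Of 22 genes of cytosolic aminoacyl-tRNA synthetases, which charge the tRNAs that eEF1A carries, 10 were tested, 3 positive and 7 negative, and Qars had -2.29 (SE 2.96). The integrated stress response genes, which follow eIF2 phosphorylation, had 3 of 10 tested and all negative. Atf4 was at 291 FPKM for the CTC and 161 for the tumor cell of mouse 1168, with a difference of -0.72 (SE 3.28) over the mice. Outside mouse 1168 each of these tested genes reached 1 FPKM only in a tumor cell, so the filter favoured a negative sign. In mouse 1168, where all 10 genes were measured, the median difference was 0.87. Enzymes that modify eIF5A and eEF2 had 4 of 8 tested (median 0.15), and termination factors and mitochondrial translation factors had 1 each. For the 12 genes of these lists taken by smallest p, the adjusted p was 0.99994 (limma).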

How the data were processed

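The authors deposited 1 table of FPKM values for 6 cells (unit FPKM, per the name of the deposited table), and STAR 2.4.2a, Cufflinks 2.2.1 and build GRCm38 are named, with no further detail, per the submitters' processing notes. The handling of reads with several matches, and any use of strand in counting, are not given in the sources used here. Of 45038 rows, 27 named as dates and 211 with repeated names (4 of them both) were left out. The pairing of cells rests on the labels, which give each CTC and tumor cell the same mouse. After group means were removed, cells of a mouse correlated at 0.178 (1157), 0.689 (1168) and 0.428 (PDGF1) across genes, and the CTC of PDGF1 with the tumor cell of 1157 at 0.422.

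Groups were compared with limma 3.58.1 (R 4.3.3) (two-sided, with a trend of variance on mean) applied to log2(FPKM + 1), with Benjamini-Hochberg adjustment over 4165 genes that reached 1 FPKM in at least 3 cells, and a threshold of 0.05. On simulated data the fit recovered changed genes where the spread was small but not at the spread of these cells. Its SEs follow the trend of spread between the 3 mice over genes of like level, not the spread of each gene, and differences on this scale understate changes of low genes. Estimates of depth used 4285 genes with 1 transcript longer than 1500 bases, of which 90.4% to 93.1% of values near 1 to 5 fragments were whole within 0.1 (20% by an even spread), a step added after the values were seen. Gene positions, lengths and starts came from GENCODE M21 on GRCm38, which matched all 63 members, 13 of them with same-strand exon overlap with another gene. Python 3.11.15 with numpy 2.4.6, pandas 2.3.3 and matplotlib 3.10.9 did the rest.

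The members' rule, the lists and the tests were chosen with earlier results of these data known. Named by rule, with some values under 1 FPKM given as limits, were the 12 members of highest mean FPKM, the 6 tested members of smallest p, paralog sets, regulators, the 3 largest differences per mouse and any tested member whose groups did not overlap. Up to 2 genes per pathway list were named by smallest p. Alternatives were other pseudocounts, filters, scalings, detection levels and sizes of difference, a fit without the trend, the mouse as a block and leaving out each cell. Leaving out both cells of a mouse, keeping the pseudogene rows and a blocked fit for Eef2k were added after the data were seen. One transcript start is not reported here.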

Additional observations from a re-analysis of the deposited data

How the results depend on the processing

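The count of members passing by limma stayed at 0 under each of the 17 alternatives run, with the smallest adjusted p of a member at 0.952 for Eif3j2 with the mouse as a replicate block. That block called 1 gene of the whole table, no member, and changed no other call. Beyond these 17, the blocked fit with 1 FPKM required in 2 cells gave Eef2k an adjusted p of 0.903 (limma). The member median was -0.592 after rescaling each cell to the same FPKM sum, which let more genes reach 1 and moved the median of all genes from -0.058 to -0.679. Leaving out single cells gave member medians from -1.505 to 2.02, both over 15 tested members. Beside these 2 values, the medians of all genes then tested were -0.977 and 0.963. The difference of Eif2s3x reversed to -0.283 without both cells of mouse 1157, and the cause was not tested. Within mice, rescaling gave 33 members lower in mouse 1157, 6 higher in mouse 1168, and 5 higher and 29 lower in mouse PDGF1, over the 58, 61 and 56 members that then reached 1. The medians of those members were -1.30, -0.22 and -1.10, beside -1.42, -0.27 and -1.10 over all rows that then reached 1. Requiring a difference of 2 left 0 lower in mouse 1157, 0 higher and 0 lower in mouse 1168, and 3 lower in mouse PDGF1. At 5 FPKM, 14 and 3 members were detected in mouse 1157 (CTC, tumor cell), and 1 and 3 in mouse PDGF1. Depth limits the tumor cell of mouse 1157 most, where 1 fragment per kilobase equals 0.0855 FPKM.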

Other observations

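Single genes that work beside the factors differed within mouse 1168, and those given here were chosen after their values were seen. The kinase gene Mtor was at 35.6 FPKM in the CTC against 2.03, while Rps6kb1, which encodes an S6 kinase downstream of it, was at 3.18 and 12.2. Their lists as a whole were counted at a log2 difference of 1 or more, beside 22.7% and 24.9% of all rows higher and lower in the CTC. Of 14 mTORC1 and cap-signalling kinase genes measured, 2 were higher and 4 lower. The counts were 2 and 1 of 22 synthetase genes, 3 and 2 of 8 mitochondrial translation factors, and 3 and 3 of 10 integrated stress response genes. Ddit3, a transcription factor of prolonged stress, was at 134 against 35.3 FPKM, Atf5 at 17.3 against 119, and Ppp1r15a, which directs the phosphatase of eIF2, at 0.165 against 7.16. Aimp1, a scaffold of the tRNA synthetase complex, was at 291 against 53.9, and Tsfm, the exchange factor of mitochondrial elongation, at 49.5 against 6.06. Each compares 1 library with 1 other.

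In the tumor cell of mouse PDGF1, Etf1, the release factor that ends translation at stop codons, was at 52.2 FPKM, above the receptor percentile of 7.03 in that cell and above every member there (highest 10.8, Eif3a). The CTC of that mouse had 0.6002, mouse 1168 had 29.4 (CTC) and 46.9 (tumor cell), and mouse 1157 had 0.145 and 0.195.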
